A study of Homo sapiens with 18 samples.

Results

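A set of 4652 accessible regions was listed as open in A2780 cells with and without cisplatin and overlapped no region listed in Acis cells. A2780 is a cisplatin-sensitive human ovarian cancer line, and Acis (A2780cis) is its resistant derivative. The regions, called A2780-only peaks here, are the ATAC-seq peaks of untreated A2780 cells that overlapped a peak of cisplatin-treated A2780 cells by at least 1 bp and overlapped no peak of untreated or treated Acis cells. They are 13.3% of the 34979 peaks of untreated A2780 cells. The other lists were shorter, with 32159 peaks after cisplatin in A2780 and 24485 and 27321 in untreated and treated Acis cells, and with each list held to its 20000 strongest peaks 1487 A2780-only peaks remained. A peak missing from an Acis list cannot be told apart from one under the caller's threshold. ATAC-seq maps open chromatin by the insertion of a transposase, and RNA-seq was done on cells given the same treatment. Each line was either left untreated (control) or incubated with 200 µM cisplatin for 3 h, and Acis cells were also given 1 µM cisplatin at intervals in culture, in the control group too. There were 3 RNA-seq libraries in each of the 4 groups, and 1 deposited peak list per group, merged from 3 control or 2 cisplatin ATAC-seq replicates. Each line is 1 cell line, so a difference between the lines cannot be told apart from a difference between any pair of cultures grown separately for long. The replicates were wells of the same line, and the p-values below measure the spread between these libraries, which may be technical.

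Open chromatin marks DNA that is not wrapped tightly in nucleosomes. At gene starts it is found where transcription begins, and away from gene starts it is found at enhancers, which bind transcription factors in a cell-type manner, and at sites of the insulator protein CTCF. Peaks at the starts of housekeeping genes are shared by most cell types, while distal peaks vary more.

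The sequences below are hg38 plus-strand windows of at most 200 bp centred on the summit of an A2780-only peak, trimmed where they ran into an annotated exon. They include windows just before the most upstream annotated starts of DLX6 and CDKN1A and a window further upstream of LIN28A. The RNA of each of these genes differed between the lines. The LIN28A summit lay 1311 bp from the gene start, so only the edge of its peak came within 1000 bp of the start. The window labelled LIN28A start therefore does not hold that start. Further windows show the strongest A2780-only peak near PAX2 and a peak inside ERCC1 that lies near FOSB. The last are the distal A2780-only peaks with the highest fold enrichment for each of 4 sequence words. Capitals mark 7 of the 18 words searched, and other words are not marked. The search covered both strands, where N is any base and words may share bases. Basic helix-loop-helix factors bind the E-box word CAGCTG, homeobox factors bind words such as TAATTA, and factors of the GATA family bind AGATAA. The word used for AP-1 was TGANTCA, which includes TGAATCA and TGATTCA beside TGACTCA and TGAGTCA. The word used for CTCF was CNAGGNGGC, for SP and KLF factors GGGCGG, and for ETS factors CCGGAAG. These are fixed words, so other forms of a motif are neither marked nor counted.
DLX6 start, chr7:97005382-97005552: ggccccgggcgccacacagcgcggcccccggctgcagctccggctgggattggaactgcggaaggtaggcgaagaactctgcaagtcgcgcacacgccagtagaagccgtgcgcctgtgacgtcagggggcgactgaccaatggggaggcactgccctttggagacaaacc
LIN28A start, chr1:26409406-26409605: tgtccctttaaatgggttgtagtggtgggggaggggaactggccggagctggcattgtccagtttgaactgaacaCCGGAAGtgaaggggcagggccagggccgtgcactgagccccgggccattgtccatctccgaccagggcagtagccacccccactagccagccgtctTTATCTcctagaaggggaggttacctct
CDKN1A start, chr6:36676318-36676459: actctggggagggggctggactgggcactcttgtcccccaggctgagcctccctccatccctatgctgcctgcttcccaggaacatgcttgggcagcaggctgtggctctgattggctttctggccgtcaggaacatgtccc
PAX2 downstream, chr10:100872307-100872506: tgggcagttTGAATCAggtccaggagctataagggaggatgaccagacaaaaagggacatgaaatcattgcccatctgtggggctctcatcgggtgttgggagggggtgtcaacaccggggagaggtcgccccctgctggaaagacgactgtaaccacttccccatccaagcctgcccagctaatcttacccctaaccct
ERCC1 and FOSB, chr19:45455824-45456023: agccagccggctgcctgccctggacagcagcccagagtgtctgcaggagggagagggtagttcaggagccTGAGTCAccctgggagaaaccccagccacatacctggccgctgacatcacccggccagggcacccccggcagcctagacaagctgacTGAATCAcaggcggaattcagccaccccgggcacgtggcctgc
E-box word, chr9:25003769-25003968: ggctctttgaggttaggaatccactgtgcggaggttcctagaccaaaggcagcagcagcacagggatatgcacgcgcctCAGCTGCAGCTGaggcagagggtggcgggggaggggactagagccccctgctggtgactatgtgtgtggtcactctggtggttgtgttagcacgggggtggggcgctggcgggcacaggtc
homeobox word, chr2:191555203-191555402: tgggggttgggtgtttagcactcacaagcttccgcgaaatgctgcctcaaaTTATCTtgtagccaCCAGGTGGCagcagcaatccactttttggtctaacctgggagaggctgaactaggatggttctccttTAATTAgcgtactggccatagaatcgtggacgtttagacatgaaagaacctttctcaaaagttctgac
GATA word, chr7:152990048-152990247: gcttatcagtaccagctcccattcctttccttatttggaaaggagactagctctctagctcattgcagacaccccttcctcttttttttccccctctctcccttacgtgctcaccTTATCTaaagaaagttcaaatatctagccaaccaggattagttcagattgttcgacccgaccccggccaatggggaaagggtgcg
AP-1 word, chr12:48296624-48296823: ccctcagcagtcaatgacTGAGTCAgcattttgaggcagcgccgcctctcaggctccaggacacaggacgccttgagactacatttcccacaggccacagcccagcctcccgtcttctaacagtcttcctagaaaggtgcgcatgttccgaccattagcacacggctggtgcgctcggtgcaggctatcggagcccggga

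The E-box example lies between genes, 85282 bp from the nearest annotated start (RN7SKP120), and had a fold enrichment over the local background of 25.2 in control and 21.9 in cisplatin-treated A2780 cells. The GATA example had a fold enrichment of 21.9 and 15.04, the AP-1 example of 21.2 and 19.7, and the homeobox example of 17.1 and 11.6 in the same order. The homeobox example also held a GATA and a CTCF word.

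Position along the genome was not used to choose the peaks. Of the 4652 A2780-only peaks, 1065 (22.9%, 95% Wilson interval 21.7 to 24.1) overlapped a promoter window. This window was 1000 bp on each side of the most upstream annotated start of a gene, and other starts were not used. Peaks outside these windows were classed by their summit. It lay in an exon for 344 (7.39%), in an intron for 1901 (40.9%) and between genes for 1342 (28.8%). Peaks found in all 4 lists were at promoters in 53.7% of 17633 cases, and peaks of the A2780 control list alone in 8.34% of 7179. Acis-only peaks, which were in both Acis lists and in neither A2780 list, were at promoters in 8.58% of 2145 cases. A2780-only peaks were therefore less often at promoters than peaks of all 4 lists and more often than either of the other classes, with intervals that do not overlap, although these intervals cover counting error only. The peaks that were not at promoters lay a median of 17594 bp from the nearest gene start, against 12557 bp for peaks of all 4 lists.

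**Figure D1:**
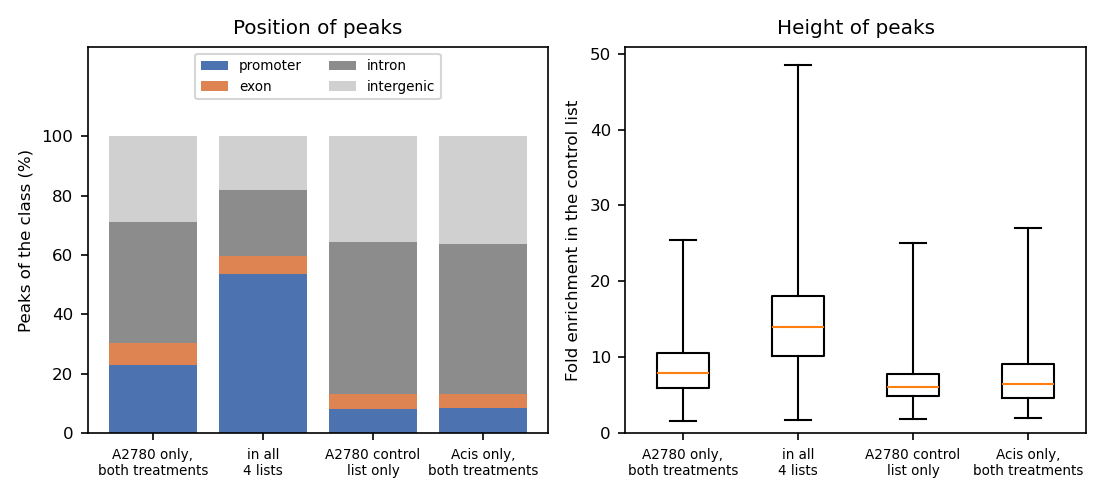
Left, share of peaks (%) by position for 4 classes of peaks, with promoter meaning within 1000 bp of a gene start. Right, fold enrichment over the local background in the control list, with the box from the lower to the upper quartile, the line at the median and the whiskers at the lowest and highest peak. A2780-only peaks had 22.9% at promoters and a median fold enrichment of 7.98, against 53.7% and 14.0 for peaks of all 4 lists.

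The following values come from the lists that chose the peaks and are a description. The median fold enrichment of A2780-only peaks was 7.98 in control cells, with quartiles of 5.97 and 10.6 and a range of 1.58 to 25.5. Peaks of all 4 lists had a median of 14.0 and peaks of the A2780 control list alone 6.15. The median −log10 q-value was 44.3, against 143 for peaks of all 4 lists, and the median width was 601 bp against 734 bp. Among A2780 control peaks that also had a peak after cisplatin, the A2780-only share fell with peak significance, from 40.2% in the lowest quartile of −log10 q through 18.5% and 10.4% to 3.48% in the highest. After cisplatin, the fold enrichment was a median of 0.849 times that of the control peak, and the ratio for peaks of all 4 lists was 0.847. In 129 A2780-only peaks it was under 0.5 and in 16 over 2. The summit sequence of 32 bases occurred more than once in the genome for 613 A2780-only peaks (13.2%), close to the 12.4% of peaks of all 4 lists.

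Only 2 A2780-only peaks had an Acis peak under 100 bp away and 184 had one under 500 bp away, with a median fold enrichment of 4.79 in the latter. The median distance to the nearest Acis peak was 25909 bp. On the other side of the rule, 197 peaks of both A2780 lists were left out although they shared under 250 bp with an Acis peak, and their median fold enrichment was 10.4. The read depth behind each list is not in the peak files and no peak values per replicate were used, so no difference between the lists could be set against replicate error.

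The 10 A2780-only peaks with the highest fold enrichment had values between 22.6 and 25.5 in control cells and between 16.3 and 22.8 after cisplatin. The highest, at chr16:35492185-35492753, lay 103 bp from the start of the gene ENSG00000261350. The others included a peak in an intron of the lncRNA gene ENSG00000229425 on chromosome 21, a peak 22579 bp from the start of HLA-DQB2, which encodes an MHC class II chain, and an exonic peak where ZNF709, a zinc finger gene, overlaps ENSG00000196826. Of the 10, 8 had a summit sequence found once in the genome, and the other summits were found 8 times (near HLA-DQB2) and 3 times (in SRGAP2B).

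Sequence words were counted in 200 bp windows at the summits and were not used by the rule. Among 3587 A2780-only peaks outside promoters, the E-box word CAGCTG was the most frequent of the 18 words searched, at 14.7%, with 13.8% in distal peaks of all 4 lists and 12.6% in all 22483 distal peaks of A2780 control cells. The GATA word AGATAA was in 7.92%, against 3.88% in distal peaks of all 4 lists and 6.62% in all distal peaks. The homeobox word TAATTA was in 3.62%, against 1.35% and 2.85% in the same order, and the AP-1 word TGANTCA in 7.16%, against 4.41% and 5.80%. The CTCF word was in 11.6% of distal A2780-only peaks, against 17.7% and 12.7%, and the SP and KLF word in 13.1%, against 23.8% and 14.7%. The other classes of distal peaks held these words at other levels. The GATA word was in 9.53% of distal peaks of the A2780 control list alone and 15.5% of Acis-only ones, the homeobox word in 4.50% and 3.52%, and the AP-1 word in 6.69% and 9.43%. The CTCF word was in 6.26% and 5.35% of them, the SP and KLF word in 5.14% and 4.13%, and the E-box word in 10.4% and 9.48%. The GATA, homeobox and AP-1 shares of A2780-only peaks were thus not above those of both of these classes, and the CTCF, SP and KLF and E-box shares lay above both.

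Base composition moved with these shares. The median GC content at the summits of distal A2780-only peaks was 51.5%, against 57.5% in distal peaks of all 4 lists. Within windows of 40 to 50% GC, the homeobox word was in 6.08% of 1251 A2780-only peaks and 3.21% of 1369 peaks of all 4 lists, and the CTCF word in 6.24% and 10.6%. Within windows under 40% GC, the homeobox word was in 9.40% of 298 and 2.84% of 422. In windows of 50 to 60% GC the homeobox shares were 1.95% and 1.59%, and in windows of 60% GC and more 0.349% and 0.178%. At promoters the A2780-only peaks held the ETS word CCGGAAG in 4.41%, against 16.01% for peaks of all 4 lists and 13.3% of all promoter peaks, and the SP and KLF word in 34.9%, against 58.2% and 53.3%. The E-box word was in 17.1% of them, against 11.2% and 11.96%. A match to a word is a description of the sequence, not a bound site.

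A2780-only peaks were found on every chromosome examined (1 to 22 and X). They made up 28.0% of the 710 A2780 control peaks of chromosome 13 (199 peaks) and 17.5% of the 669 of chromosome 18. On each of the other chromosomes the share was between 9.99% and 15.4%. RNA of chromosome 13 was lower as a whole: the median log2 fold change, Acis control minus A2780 control, was -0.73 over its 270 tested genes and between -0.05 and 0.19 on the other chromosomes. DNA copy number was not measured here, so the part of chromosome number in the chromosome 13 values was not tested.

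**Figure D2:**
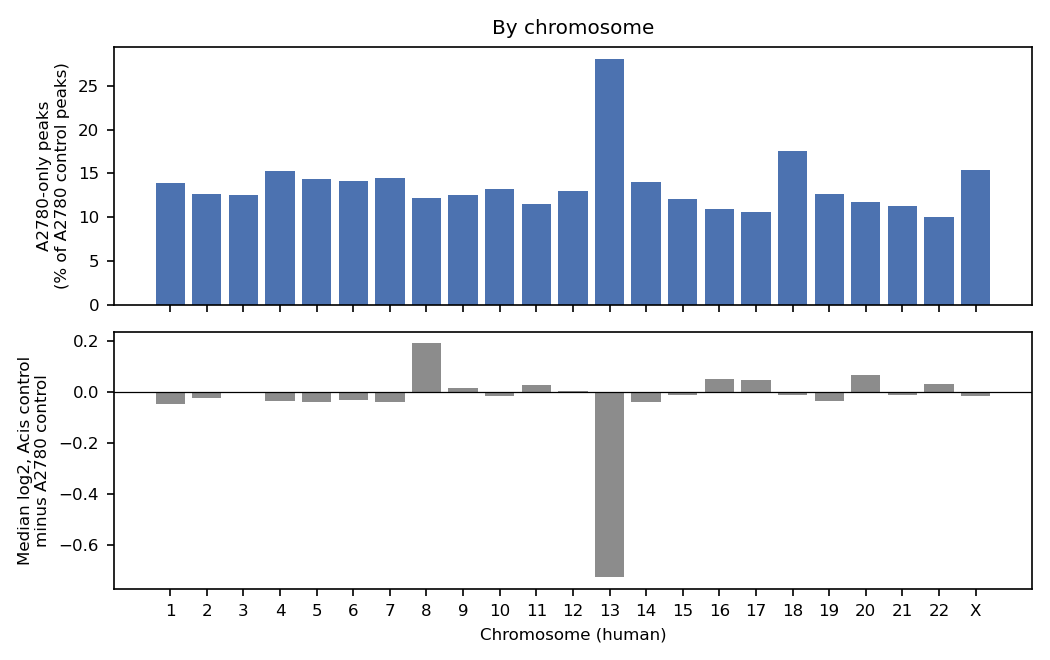
Top, share of A2780 control peaks (%) that were A2780-only, by chromosome. Bottom, median log2 fold change of RNA, Acis control minus A2780 control, over the tested genes of each chromosome. Chromosome 13 had the highest share, 28.0%, and the lowest median, -0.73.

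Most A2780-only peaks had no A2780-only peak next to them in the A2780 control list. Since they are 13.3% of that list, most neighbours of any peak are of another class, and a departure from random placement was not tested. Of the 4652 peaks, 3136 (67.4%) had a peak of another class on each side, 980 (21.1%) were in a pair, 345 (7.42%) in runs of 3, and the others in runs of up to 8 consecutive peaks. The longest run held 8 peaks over 529 kb at chr4:104532565-105061912, across the lncRNA gene CXXC4-AS1 and upstream of CXXC4. Runs of 7 peaks were at chr6:57793012-57870508, where 3 summits had repeated sequence, and at chr19:294642-462442, which includes MIER2, C2CD4C and SHC2. Runs of 6 peaks were at chr3:157437445-157588013, which includes VEPH1 and PTX3, and at chr10:100881762-100910263. The latter overlaps no annotated protein-coding or lncRNA gene and lies downstream of PAX2. None of these 5 runs held an Acis-only peak.

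RNA-seq is independent of the rule and was tested with edgeR's quasi-likelihood test over 15760 genes, and a gene was called where its Benjamini-Hochberg adjusted p-value was below 0.05 and its log2 fold change was 1 or more in size. Values per library are normalized counts, for which TMM scaling brought every library to the average size. An RNA difference in bulk cultures cannot separate fewer expressing cells from less RNA per cell. A2780-only peaks overlapped the promoter windows of 1284 annotated genes, of which 824 were in the count table and 621 passed the filter on low counts. The other 203 genes in the table had too few counts for a test. Of the 621, 256 (41.2%) were lower in Acis control than in A2780 control cells, 27 (4.35%) were higher and 338 were not called. Over all tested genes, 12.2% were called lower and 6.99% higher. The median log2 fold change was -0.48 over the 621 genes and -0.01 over the 15685 tested genes with an annotated place. In the comparison of the cisplatin-treated lines, 251 (40.4%) were lower and 31 (4.99%) higher, beside 11.9% and 7.28% of all tested genes. Of the promoter genes, 242 were lower in both comparisons, a count given without the share of all tested genes.

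The RNA difference went with how much of the promoter's accessibility was A2780-only. At 428 genes the A2780-only peaks were the sole A2780 control peaks in the promoter window, and 224 of these (52.3%) were lower in Acis, with a median log2 fold change of -1.20. At the other 193 genes another A2780 control peak was present too, and 32 (16.6%) were lower, with a median of -0.13. Genes with a promoter peak of all 4 lists were lower in 7.33% of 9470 cases. Genes with a promoter peak of the A2780 control list alone were lower in 32.8% of 259 cases. Genes with an Acis-only promoter peak showed the opposite direction, with 6.11% of 131 lower and 58.0% higher. Among sole-peak genes, 177 of 359 protein-coding genes (49.3%) and 39 of 54 lncRNA genes (72.2%) were lower.

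Expression level moved with these shares, and the difference from other genes was present at each level. Of promoter genes with a mean of 200 counts or more per library, 59 of 268 (22.0%) were lower, beside 3.86% of all tested genes at that level. Between 50 and 200 counts 47.8% were lower, beside 12.8%, and between 10 and 50 counts 61.4%, beside 21.2%. Below 10 counts 65.3% of 49 genes were lower, beside 33.6%. In 48 of the 621 genes (7.73%) all 6 Acis libraries had 0 counts, beside 1.36% of tested genes. The filter keeps such genes only through their A2780 libraries. Without chromosome 13, an exclusion chosen after the data were seen, 243 of 593 promoter genes (41.0%) were lower.

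**Figure D3:**
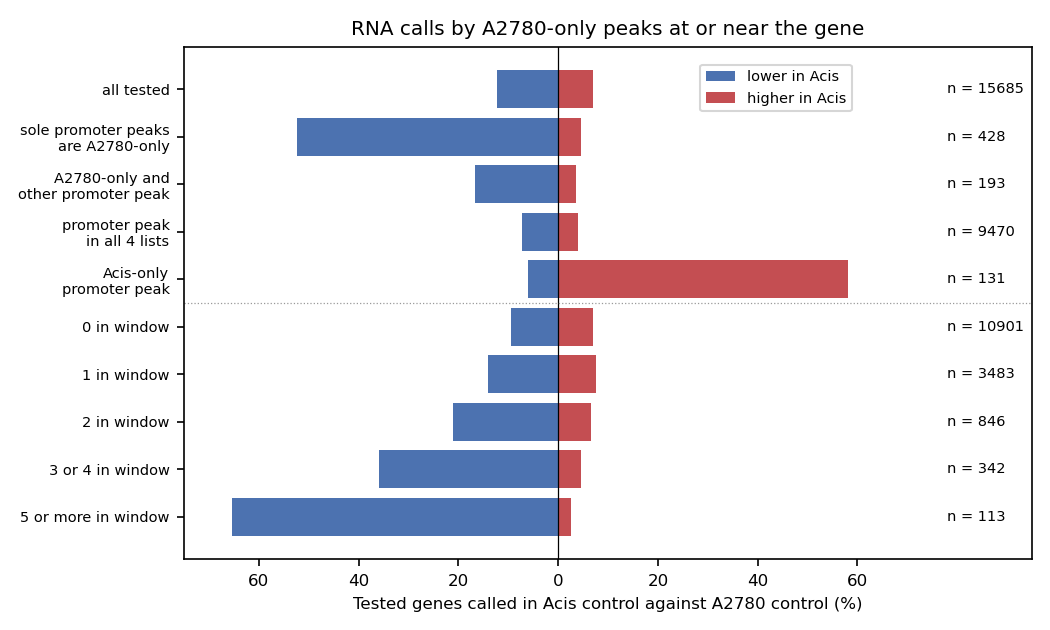
Share of tested genes (%) called lower (left, blue) or higher (right, red) in Acis control against A2780 control cells. Above the dotted line, genes by peaks in the promoter window. Below it, genes by the number of A2780-only peaks in the gene body and 50 kb on each side. The share called lower was 52.3% where the sole promoter peaks were A2780-only and 65.5% with 5 or more peaks in the gene window.

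Among promoter genes, the 11 called genes with the lowest log2 fold changes had RNA at or close to 0 in Acis. EYA4, a transcriptional coactivator of the eyes absent family, had 800.4, 779 and 774 normalized counts in A2780 control libraries, 475, 477 and 487 in A2780 cisplatin, 0 in each library of Acis control and 0, 0.985 and 0 in Acis cisplatin. Its fold was at least 721, computed against a floor of 3 counts over the Acis control group, and its sole peak within 50 kb was the A2780-only peak at its start. DLX5 and DLX6 are neighbouring homeobox genes of craniofacial and limb development. DLX5 had 485, 500.05 and 512 normalized counts in A2780 control, 559, 538 and 575 in A2780 cisplatin and 0 in all 6 Acis libraries (at least 458-fold lower). DLX6 had 479, 524 and 504 in A2780 control, 541, 535 and 504 in A2780 cisplatin, 0 in each library of Acis control and 0.96, 0 and 0 in Acis cisplatin (at least 461-fold lower in Acis control). Of the 7 A2780 control peaks in the window of DLX5, 4 were A2780-only. The adjusted p-values of EYA4, DLX5 and DLX6 were 1.43e-25, 4.26e-22 and 4.65e-23 from edgeR. These genes were picked as called genes whose control groups did not overlap, so neither trait is a separate result.

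LIN28A, an RNA-binding protein that blocks maturation of let-7 miRNAs, had 1036, 1035 and 1014 normalized counts in A2780 control and 0, 0 and 1.14 in Acis control libraries, where 1 read was counted in all. The ratio was 2835, with a counting interval of 508 to 112012. BST2 (tetherin), an interferon-induced membrane protein that holds budding viruses, had 413, 435 and 442 in A2780 control, 458, 452 and 446 in A2780 cisplatin and 0 in all Acis libraries (at least 394-fold lower). RGS1, a regulator of G protein signalling, had 442, 498 and 488 in A2780 control and 0 in Acis (at least 437-fold lower). VAV3, a guanine nucleotide exchange factor, had 229, 246 and 236 and 0 in the same groups (at least 218-fold lower). The homeobox genes ZFHX4 and ALX1 and CNNM1, of a family linked to magnesium transport, also had 0 counts in the Acis control libraries, with A2780 control values between 1077 and 1190.1 for ZFHX4, between 201 and 229 for ALX1 and between 219 and 275 for CNNM1. The lncRNA gene ENSG00000251095 had 334, 317 and 321 in A2780 control and 0 in Acis control (at least 298-fold lower), with 8 of the 30 peaks in its window A2780-only. The fold enrichment of the promoter peaks of these genes was between 3.37 and 13.7 in A2780 control cells.

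**Figure D4:**
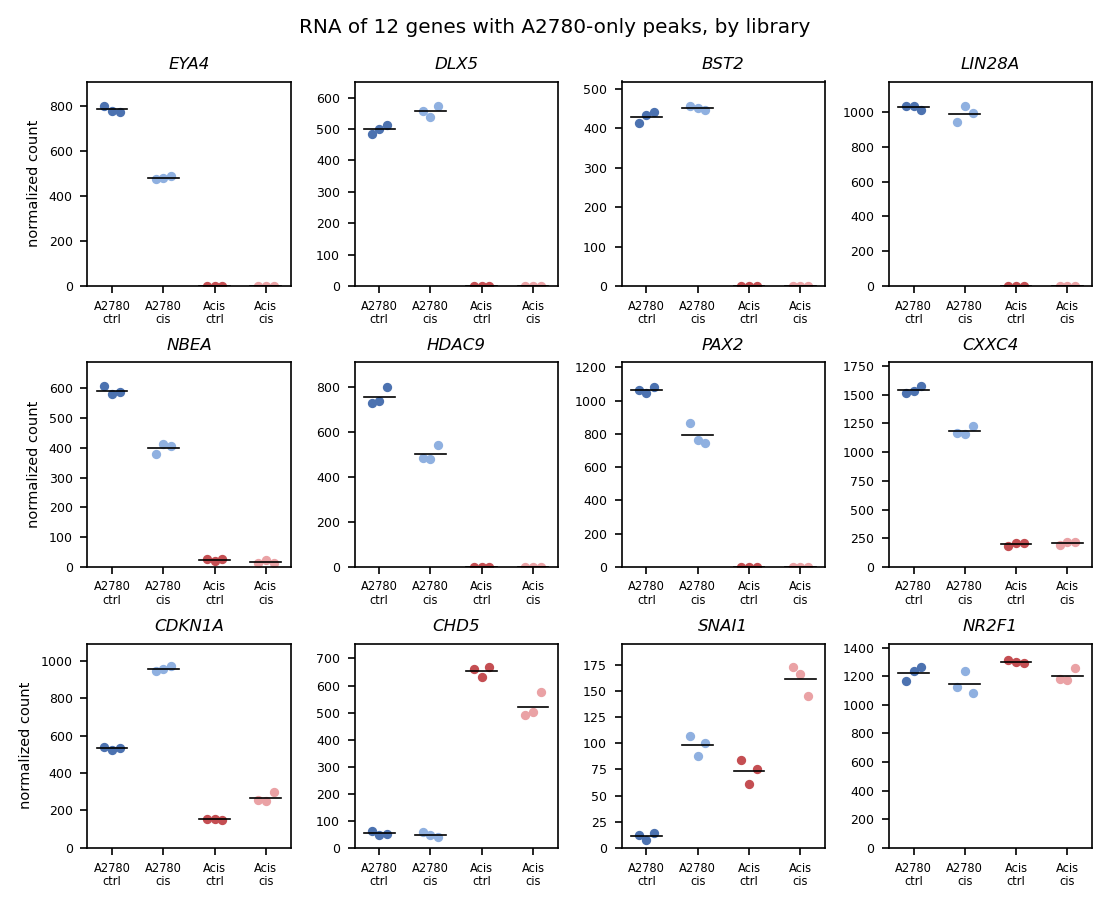
Normalized counts of 12 genes in each of the 12 RNA-seq libraries, on linear axes from 0, with points for libraries and lines for group means; ctrl is control and cis is cisplatin. EYA4, DLX5, BST2, LIN28A, HDAC9 and PAX2 were at or near 0 in Acis, CHD5 and SNAI1 were higher in Acis, and the groups of NR2F1 were close together.

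At 27 genes the RNA was higher in Acis although the promoter held an A2780-only peak. CHD5, a chromatin remodeler of the nervous system, had 63.4, 46.2 and 51.2 normalized counts in A2780 control and 661, 632 and 668 in Acis control, which is 3.60 ± 0.10 (standard error) on the log2 scale (adjusted p = 2.71e-22, edgeR). Its promoter peak had a fold enrichment of 4.39 and a summit 1007 bp from the gene start. In its window, 4 of the 10 peaks were A2780-only. SYTL2, an effector of Rab27 in vesicle transport, had 15.9, 24.04 and 37.4 in A2780 control against 228, 230.03 and 238 in Acis control, or 3.19 on the log2 scale (adjusted p = 1.77e-17, edgeR). ASPHD2 (1.85) and LINGO1 (1.49), a neuronal membrane protein, were the others with the highest log2 fold changes. In all 4 genes the A2780-only peak was the sole A2780 control peak of the promoter window, and no Acis-only peak lay in the gene window.

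Of promoter genes with a mean of 200 counts or more, 59 of 268 (22.0%) were called lower, beside 3.86% of all tested genes at that level. The 4 genes below were picked as the most abundant promoter genes that were not called, so that trait is not a result. DYNC1H1, the heavy chain of cytoplasmic dynein, averaged 4501 ± 107 (SD, n = 3) normalized counts in A2780 control libraries and 3493 ± 91.5 (SD, n = 3) in those of Acis control, a log2 difference of -0.37 (adjusted p = 1.6e-11, edgeR) that was under the size threshold. The values were 0.19 for EEF2, the translation elongation factor, -0.04 for ACACA, which makes malonyl-CoA for fatty acid synthesis (adjusted p = 0.354, edgeR), and 0.13 for the kinase TAOK1. Among the promoter peaks of these genes, those of EEF2 and TAOK1 had summits 1219 and 1161 bp from the gene start, so only their edges reached the window.

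The number of A2780-only peaks in and around a gene went with lower RNA in Acis. With no A2780-only peak in the gene body and 50 kb on each side, 9.55% of 10901 genes were lower and 6.94% higher. The share called lower was 14.2% of 3483 genes with 1 such peak, 21.2% of 846 with 2, 36.0% of 342 with 3 or 4 and 65.5% of 113 with 5 or more. The median log2 fold change of the last of these groups was -2.09, and 3 of its genes (2.65%) were higher. Long genes have wider windows, and the median gene length was 157729 bp with 5 or more peaks and 23693 bp with none. Within each length class the direction was the same. Among genes under 30 kb, 40.7% of 199 with 3 or more peaks were lower against 8.76% of 6093 with none. Among genes over 150 kb, 55.8% of 120 were lower against 17.8% of 940. Where 3 or more A2780-only peaks lay in the window but the promoter held a peak of all 4 lists and no A2780-only peak, 29 of 162 genes (17.9%) were lower, with a median of -0.17.

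NBEA, DMD, HDAC9 and CNTNAP2 were among the genes with the most A2780-only peaks. NBEA (neurobeachin), a scaffold protein of membrane traffic on chromosome 13, had 28 A2780-only peaks among the 45 peaks in its window, the highest number among tested genes with a symbol. Its RNA was 606, 579.9 and 588 normalized counts in A2780 control and 25.5, 20.2 and 26.2 in Acis control, which is -4.62 ± 0.10 (standard error) on the log2 scale (adjusted p = 1.95e-24, edgeR). Both A2780 control peaks in the promoter window of NBEA were A2780-only.

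HDAC9, a class IIa histone deacetylase, had 13 among 35 peaks, 727, 739 and 801 normalized counts in A2780 control and 0 in the Acis control libraries (at least 692-fold lower). CCDC178 (13 of 45 peaks) had 260.3, 267 and 248 in A2780 control and 0, 1.06 and 0 in Acis control, a ratio of 713 with a counting interval of 128 to 28208. CNTNAP2, a membrane protein of axons (12 of 35), had 104, 104 and 114 in A2780 control against 0, 1.06 and 0 in Acis control, a ratio of 295 (52.5 to 11676). The lncRNA genes LINC02790 (13 of 27, at least 22.9-fold) and LINC01091 (12 of 41) were lower in Acis control too, the latter with 218, 243 and 244 normalized counts against 9.55, 7.45 and 10.3. HDAC9, CCDC178, LINC02790 and LINC01091 had no A2780 control peak in the window at their most upstream annotated start. Their A2780-only peaks thus all lay away from that start, and other starts of these genes were not examined.

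Other genes with many such peaks differed less. DMD (dystrophin), with 16 A2780-only peaks among 86 and 14 Acis-only peaks in its window, had 3152, 3093 and 3224 normalized counts in A2780 control and 1183, 1231 and 1202 in Acis control, a log2 fold change of -1.39. PBX3, a homeobox cofactor, had 12 among 26 and -1.22 (adjusted p = 6.04e-19, edgeR). RSRC1, a splicing-related gene, had 13 among 36 and -0.45, under the size threshold. RBMS3, an RNA-binding protein, had 12 among 68 beside 16 Acis-only peaks, and its log2 fold change was 0.20, not a call. The promoters of DMD, PBX3 and RBMS3 each held 1 A2780 control peak that was not A2780-only.

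Beside the longest run, CXXC4, a repressor of Wnt signalling, had 11 A2780-only peaks among 19 in its window. CXXC4 RNA was 1518, 1537 and 1579.7 normalized counts in A2780 control, 1167, 1161 and 1226 in A2780 cisplatin, 184, 207 and 206 in Acis control and 190.04, 215 and 213 in Acis cisplatin, a log2 fold change between control groups of -2.96 (standard error 0.05, adjusted p = 1.84e-26, edgeR). CXXC4-AS1, transcribed from the opposite strand (the counting used strand), had 35.5, 31.7 and 36.3 in A2780 control and 0, 3.19 and 0 in Acis control, a ratio of 31.6 (10.5 to 156), and 14 of the 20 peaks in its window were A2780-only. In the run on chromosome 19, SHC2, an adaptor of receptor tyrosine kinases, had 63.4, 65.4 and 59.8 in A2780 control and 11.7, 8.52 and 3.42 in Acis control, and C2CD4C had 105, 107 and 77.9 in A2780 control against 15.9, 19.2 and 9.12 in Acis control. Other genes differed in direction. Next to the run, PLPP2, a lipid phosphatase with 2 A2780-only peaks among 4, was higher in Acis control (3.73, 2.88 and 1.07 against 180.5, 173 and 146), and in the run MIER2 had a log2 difference of 0.21. In the run on chromosome 3, VEPH1 had 27.99, 24.04 and 29.9 in A2780 control and 0 in Acis control, and PTX3, a secreted pattern recognition protein, had 17.7, 11.5 and 14.9 in A2780 control against 2.12, 0 and 0 in Acis control, a ratio of 20.3 (5.31 to 173). The run downstream of PAX2 lay beside SLF2, a protein of the SMC5/6 pathway, which had 1506, 1481 and 1534 in A2780 control against 665, 710.3 and 699 in Acis control (log2 fold change -1.12, adjusted p = 1.17e-19, edgeR).

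The counts for the gene lists below stand beside 30.5% of all tested genes with an A2780-only peak in the gene window, 12.2% lower and 6.99% higher in Acis control. The lists are short, and no difference of a list from these shares was tested. Among 18 urogenital and mesoderm factors, 6 were tested, of which 4 were lower and 1 higher, and 5 had an A2780-only peak in their window. The 4 lower genes were among these 5, and the higher one was not. PAX2, a factor of kidney and Müllerian duct development, had 1067, 1045 and 1084 normalized counts in A2780 control, 867, 765 and 743 in A2780 cisplatin and 0 in Acis control (at least 978-fold lower), with 4 A2780-only peaks among 9 in its window. FOXL2, a factor of the ovary, had 136, 133 and 130.2 in A2780 control, 226, 230.4 and 207 in A2780 cisplatin and 0 in all Acis libraries (at least 122-fold lower), and its sole promoter peak was A2780-only with a fold enrichment of 13.9. TBX18 fell from 41.05, 39.4 and 36.3 to 0, a fold of at least 35.9. NR2F1, an orphan nuclear receptor with 2 A2780-only peaks among 9, had 1169, 1235 and 1265 in A2780 control against 1311, 1298 and 1292 in Acis control, a log2 difference of 0.09 (adjusted p = 0.0691, edgeR).

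Among 20 neural and homeobox factors, 14 were tested, of which 8 were lower and 1 higher, and 10 had an A2780-only peak in their window (all tested genes, 12.2% lower, 6.99% higher and 30.5% with such a peak). Of these 10, 4 were lower (DLX5, DLX6, ZFHX4 and ZIC1) and 1 was higher (TBR1). The median log2 fold change was 0.17 over these 10 and -5.88 over the 14 tested. Lower RNA in this list was thus not confined to genes with such a peak. ZIC1, a zinc finger factor of the dorsal nervous system, had 819, 813 and 856 normalized counts in A2780 control and 1.06, 1.06 and 0 in Acis control, a ratio of 1141 (316 to 9429), and its promoter peak was not A2780-only. MEIS1, with 4 A2780-only peaks among 18, had a log2 difference of 0.10 (adjusted p = 0.0635, edgeR), and ZFHX3, with 5 among 47 beside 12 Acis-only peaks, had 0.43, under the size threshold. TBR1, a factor of cortical neurons, had 1.87, 3.85 and 2.13 in A2780 control and 1145, 1134 and 1164 in Acis control, although 1 of the 2 A2780 control peaks in its window was A2780-only. An Acis-only peak lay in the same window.

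Of 18 adhesion and matrix genes, 10 were tested, of which 6 were lower and 2 higher, and 2 had an A2780-only peak in their window, beside 12.2%, 6.99% and 30.5% of all tested genes. Of the 6 lower genes, only LAMA1, a chain of laminin, had such a peak. Its RNA fell from 886, 831 and 780.2 to 1.06, 3.19 and 0 normalized counts. The sole A2780 control peak in the LAMA1 window was A2780-only. PCDH17, a protocadherin, rose from 51.3, 50.97 and 55.5 to 199.6, 195 and 182; both A2780 control peaks in its window were A2780-only, and the window held 12 Acis-only peaks.

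The repair and drug transport genes with an A2780-only peak in their window differed by less than the size threshold between the control groups. All 13 nucleotide excision repair genes were tested and 5 had such a peak, beside 30.5% of all tested genes, with log2 differences between -0.34 and 0.63. ERCC5, the 3′ endonuclease, had 4 among 6 peaks, and its RNA was 23.3, 11.5 and 20.3 normalized counts in A2780 control and 13.8, 10.6 and 19.4 in Acis control (adjusted p = 0.342, edgeR). ERCC1, of the 5′ endonuclease, had 2 among 17 and a log2 difference of 0.20 (adjusted p = 0.00367, edgeR), and ERCC2, a helicase of TFIIH, 1 among 7 and 0.63 (adjusted p = 9.82e-11, edgeR). RAD23B and UVSSA, which act in damage recognition, had 1 each, with log2 differences of 0.04 and 0.04. Of 13 platinum transport and detoxification genes, 11 were tested, of which 1 was lower, and the 5 with an A2780-only peak in their window had 1 each, beside 12.2% lower and 30.5% with such a peak over all tested genes. Their log2 differences were -0.57 for ATP7B and -0.52 for ATP7A, the copper transporters, 0.08 for GSTP1, a glutathione transferase, and 0.78 and 0.39 for the metallothioneins MT2A and MT1X, whose windows share the same peak. ATP7B and ERCC5 lie on chromosome 13, where the median log2 fold change over 270 tested genes was -0.73.

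Of 16 p53 target genes, 15 were tested, of which 5 were lower in Acis control, and 4 had A2780-only peaks in their window, CDKN1A and SESN2 among the lower ones. Over all tested genes 12.2% were lower and 30.5% had such a peak. CDKN1A (p21), the inhibitor of cyclin-dependent kinases, had an A2780-only peak as the sole peak at its most upstream annotated start (fold enrichment 5.16 in control and 3.12 after cisplatin). Other starts of the gene were not examined, and 2 of the 5 A2780 control peaks in its window were A2780-only. CDKN1A RNA was 537, 524 and 533 normalized counts in A2780 control, 947, 956 and 969.5 in A2780 cisplatin, 153, 154 and 149 in Acis control and 255.31, 253 and 299 in Acis cisplatin, and the 4 groups did not overlap. The log2 fold change between control groups was -1.80 (standard error 0.07, adjusted p = 5.64e-19, edgeR). Cisplatin changed CDKN1A by 0.85 in A2780 and 0.82 in Acis on the log2 scale, both under the size threshold, and the difference of these effects had an adjusted p of 0.891 from edgeR. SESN2, a stress-induced regulator of mTORC1, had 735, 698 and 717 in A2780 control and 283, 265 and 238 in Acis control. BAX, which permeabilizes mitochondria, and PLK3, a stress kinase, had log2 differences of -0.43 and 0.19 and were not called.

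All 9 AP-1 genes were tested, of which 1 was lower and 2 higher, and 4 had an A2780-only peak in their window, beside 12.2%, 6.99% and 30.5% of all tested genes. JUNB and JUND had 1 peak each, with log2 differences of 0.17 and -0.04. FOSB had 1, the peak inside ERCC1 shown above at a distance of 12071 bp, and its RNA was 62.5, 85.6 and 91.8 normalized counts in A2780 control and 70.1, 53.2 and 67.2 in Acis control (adjusted p = 0.0732, edgeR). BATF3, a dimer partner of JUN, was higher in Acis control at low counts (5.60, 4.81 and 4.27 against 27.6, 15.97 and 20.5). Its promoter window held an A2780-only peak, with a summit 1377 bp from the gene start, beside another peak.

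The study tested 7 genes by real-time PCR (SNAI1, TBR1, EGR2, ARC, OSGIN1, RHOV and MYLIP), chosen from these samples for higher RNA in Acis control and a rise after cisplatin in A2780, so that their direction is not independent evidence. All 7 were higher in Acis control than in A2780 control, and 2 had an A2780-only peak in their window, beside 30.5% of all tested genes. SNAI1 (Snail), a repressor of epithelial genes, had an A2780-only peak as the sole A2780 control peak at its start (fold enrichment 5.59 in control and 6.11 after cisplatin). SNAI1 RNA was 12.1, 7.69 and 13.9 normalized counts in A2780 control, 107, 88.1 and 100.2 in A2780 cisplatin, 83.9, 60.7 and 75.2 in Acis control and 173, 166 and 145 in Acis cisplatin. The A2780 control libraries were thus the lowest, and the peak was listed there and not in the Acis groups. The log2 fold change between control groups was 2.701 (standard error 0.22, adjusted p = 2.04e-11, edgeR).

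The promoter genes called after 3 h of cisplatin were close in share to all tested genes in A2780. There, 6 of 621 were lower and 22 (3.54%) higher after cisplatin, beside 1.48% and 4.14% of all tested genes. By the adjusted p-value alone 324 of 621 changed. No share of all tested genes is given for that criterion, so this count does not set the promoter genes apart. In Acis, 1 was lower and 5 (0.805%) were higher, beside 0.374% and 1.64%. The difference of the cisplatin effects between the lines passed an adjusted p-value of 0.05 in edgeR, with no threshold on size, in 85 of 621 genes, 13.7%, beside 18.9% of all tested genes. The comparisons within A2780 and between the lines share the A2780 control libraries.

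The whole series bears on these values as follows. Reads counted on genes were 4130644 to 5072216 per library, and the mean squared difference between replicates was 0.73 to 1.53 times counting noise. Of the epithelial and ovarian carcinoma markers in the count table, EPCAM (means of 0.647 to 4.17 normalized counts over the 4 groups) and KRT8 (4.05 to 17.2) were low and KRT18 was 25.5 in A2780 control and 143 in Acis control. The fibroblast markers DCN and COL1A1 had means of 46.2 and 844 in A2780 control and 3.65 and 16.4 in Acis control. PAX8, WT1, MUC16, KRT7, CDH1, MSLN, PTPRC and PECAM1 were not among the genes of the count table, so they could not be analysed. The part of these markers in the differences above was not tested.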

How the data were processed

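Untreated and cisplatin-treated A2780 and Acis cells were measured by RNA-seq (3 libraries in each of 4 groups) and ATAC-seq (1 peak list per group). XR-seq samples were not analysed here. The deposited RNA-seq counts are reads per gene: the authors aligned with STAR 2.7.3, removed PCR duplicates with Picard and counted with HTSeq 0.11.1 for the reverse strand. For ATAC-seq the authors trimmed with Cutadapt 1.15, aligned to hg38 with Bowtie2 2.4.1 (up to 10 places per read, so repeated sequence can carry peaks), removed duplicates and called peaks with MACS2, keeping those shared between replicates. The deposited peak lists give fold enrichment (a ratio to the local background) and the −log10 of the q-value. The lists are merged over replicates, so no test between lists was possible.

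Overlaps were computed with bedtools 2.31.1 and Python 3.11.15 (numpy 2.4.6, pandas 2.3.3, scipy 1.17.1, matplotlib 3.10.9), and gene starts were the most upstream start of each gene in GENCODE 44. The gene window was the gene body and 50 kb on each side. The table held 23622 genes, and 15760 passed edgeR's filter on low counts, of which 15685 had an annotated place. They were fitted with edgeR 4.0.16 in R 4.3.3 (TMM, 4 groups in 1 quasi-likelihood model) and p-values were adjusted by Benjamini-Hochberg over all of them. The code was tested on simulated data. Depth was 4130644 to 5072216 counts per library. Intervals and floors cover counting error only. Replicate pairs differed by 0.73 to 1.53 times counting noise, and all 3 A2780 control pairs were below that noise. They were kept as 3 libraries, since no pair of that group stood apart from the others and their totals differed, and merging the closest pair of each group is given among the alternatives. Replicate numbers did not pair the libraries (correlation of deviations -0.07 to 0.11), so no block was used.

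The peaks, gene lists and tests were chosen with earlier results of these data known. Named genes were the lowest 12 and highest 4 called promoter genes with non-overlapping groups and a mean no lower than 100 normalized counts, the 12 genes with the most A2780-only peaks, up to 6 listed genes per gene list, the real-time PCR genes, genes at the 5 longest runs and 4 abundant promoter genes that were not called. Some genes and sequences picked by these rules are not reported here. Alternatives covered the overlap rule, peak thresholds, window sizes, DESeq2 1.42.0, total-count scaling, filters, a replicate block and each library left out.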

Additional observations from a re-analysis of the deposited data

Results flagged for a closer look

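In 14 of 74 named genes with an A2780-only peak in their window (18.9%), the effect of cisplatin differed between the lines (edgeR's quasi-likelihood test of the interaction, Benjamini-Hochberg adjusted over all 15760 genes). This share is that of all tested genes, also 18.9%. Values are the log2 effect in Acis minus that in A2780. Those with the largest differences were SNAI1 (-1.99), which rose after cisplatin in both lines, and TBR1 (-1.65), which was near 0 in A2780. The difference was -0.88 for FOSB, -0.58 for PLK3 and -0.55 for JUNB, whose estimates were positive in both lines and larger in A2780. It was -0.43 for ERCC1, -0.21 for GSTP1 and -0.20 for EEF2. The difference was positive for ATP7A (0.56), TAOK1 (0.48), CXXC4 (0.43), RBMS3 (0.42), SLF2 (0.30) and ZFHX3 (0.20), all of which had a negative estimate in A2780. No explanation for these differences was tested.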

How the results depend on the processing

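Of 123 recomputed values that answer a comparison, 79 stayed within the limits used (1.5 times for counts, the 95% interval over peaks for the promoter share and the cisplatin ratio), 44 moved and none reversed. Values are given in the order promoter genes lower, promoter genes higher and, for genes with at least 3 A2780-only peaks, lower and higher, in Acis control (256, 27, 197 and 19 as reported). Limiting each list to its 20000 strongest peaks left 1487 A2780-only peaks (25.2% at promoters, cisplatin ratio 0.826) and 129, 5, 46 and 1. Peaks above the median −log10 q left 1409 (15.7%, 0.737) and 102, 1, 88 and 2. Asking for 50% of the peak in the overlaps gave 27.4% at promoters and 46 higher, reciprocal overlap 27.1% and 48, and no Acis peak within 500 bp 21.3%. Promoter windows of 250 bp gave 14.8%, 12 higher and 17 higher under cisplatin, and windows of 2500 bp 30.6% and 41. Gene windows of 10 kb gave 99 and 4, of 100 kb 300 and 58, and at least 5 peaks 74 and 3. A mean of 50 counts gave 135, 12, 106 and 8, with 135 and 12 under cisplatin and 4 genes changed by cisplatin in A2780 (28 as reported), which was 45 with no filter and 13 for protein-coding genes. Protein-coding genes alone gave 119 lower with at least 3 peaks. Adjusted p alone gave 122 promoter genes higher (133 under cisplatin), 101 higher with at least 3 peaks and 324 changed by cisplatin in A2780. These counts have no share of all tested genes beside them.

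Leaving out 1 library gave 259 to 267, 27 to 28, 199 to 206 and 17 to 22, with 257 to 266 lower and 29 to 33 higher under cisplatin and 26 to 33 changed by cisplatin in A2780. The replicate block gave 257, 27, 197 and 19, with 251 and 31 under cisplatin and 28 changed by cisplatin, and the numbers do not pair the samples. DESeq2 gave 253, 27, 196 and 19, and merging the closest pairs 281, 29, 218 and 19. Chosen after seeing the data, summits found once in the genome gave 4039 peaks (23.4%) and 245, 27, 180 and 17. Total-count scaling moved the median cisplatin effect in A2780 over all genes to 0.10. Of 1487 values of named genes, 28 crossed the adjusted p of 0.05, for RBMS3, JUNB, ERCC1, MIER2 and TPGS1 (lost) and ACACA, NR2F1, MEIS1, FOSB and PLK3 (gained). The cause of these moves was not tested, and without depth per ATAC-seq replicate the peak lists limit what can be said of a missing peak.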
